A study of Mus musculus with 12 samples.

Results

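The genes described here are 10 axon injury and growth genes of mouse neurons, chosen by name from the deposited count table, which holds 22899 genes: Atf3, Sox11, Gap43, Basp1, Stmn2, Stmn4, Sprr1a, Gal, Galr1 and Ecel1. Their RNA was measured in primary neurons of C57Bl6 mice under 4 conditions with 3 libraries each. Cultures in the OGD group went through oxygen-glucose deprivation, a culture model of ischaemia, and OGD control cultures were given no treatment. Cultures in the KA group received 100 µM kainic acid, which activates glutamate receptors of the kainate and AMPA classes, in the culture medium, and KA control cultures were given no treatment. No transgene or deletion is named for any group, and the sources used here do not give the brain region, age in culture, duration of exposure or interval before harvest. The labels do not state whether replicates came from separate cultures, so a p-value here weighs a difference against the spread of libraries that may be technical repeats.

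When an axon is cut, signals from the damaged process reach the nucleus and switch on transcription factors such as Atf3 and Sox11. These act with Jun and others on genes whose products are carried back to the axon: growth cone proteins, regulators of microtubules, neuropeptides and proteases. The programme is best known in sensory and motor neurons after nerve injury, while most central neurons carry it out weakly after birth, and embryonic neurons in culture hold many of the growth cone genes at a high level as part of normal outgrowth.

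All 10 genes had enough counts to be tested, among 13139 genes in all, and none shares exonic bases with another annotated gene. Total counts per library ran from 12873444 to 21142267. Levels are CPM, counts relative to library size, scaled with TMM, a between-library normalization. Differences are log2 fold changes from edgeR's quasi-likelihood test, and a call means a p under 0.05 after Benjamini-Hochberg adjustment over all genes tested. The libraries carried high levels of Elavl3, a neuronal RNA-binding protein, with group means of 1028 to 1271 CPM. Rbfox3, a marker of mature neurons, was at 0.259 to 0.522 CPM. The other neuronal markers lay between these. Snap25 was at 44.6 to 93.5 CPM, Map2 at 13.3 to 16.6, Syn1 at 7.60 to 9.91 and Syt1 at 0.568 to 1.21. In the lists followed below, Mapk9, Gfra1, Myc, Cebpb and Kel were at 0 CPM in every group, and Creb1 was at 0.389 to 0.604 CPM. Whether reads of some symbols were lost in counting was not tested, so a low level here is one of counted reads. Markers of inhibitory neurons summed to 2341 to 2452 CPM in OGD control and 723 to 737 CPM in KA control, so the untreated cultures of the experiments also differed from each other. Among sensory neuron markers, the nociceptor sodium channel Scn10a had 1 count over all 12 libraries.

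KA raised 8 of the 10 genes and lowered none, against 72.7% of all tested genes called in that comparison, 35.2% called higher and 37.6% called lower. The median log2 change of the 10 genes was 0.95, beside -0.02 over all genes tested. OGD raised 1 of the 10 genes, Atf3, and lowered 3, Sox11, Sprr1a and Galr1, against 38.1% of all tested genes called, 17.6% called higher and 20.5% called lower. The median of the 10 genes under OGD was -0.05, beside 0.01 over all genes. Called changes of over 2-fold were found for 4 of the 10 genes under KA, beside 21.1% of all tested genes, and for 1 of the 10 under OGD, beside 1.66%. The 1 gene under OGD was Sprr1a, with 12 counts in OGD and 34 in OGD control, and its call was lost without OGD control replicate 2. In bulk cultures, fewer cells of a type and less RNA per cell cannot be told apart.

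**Figure D1:**
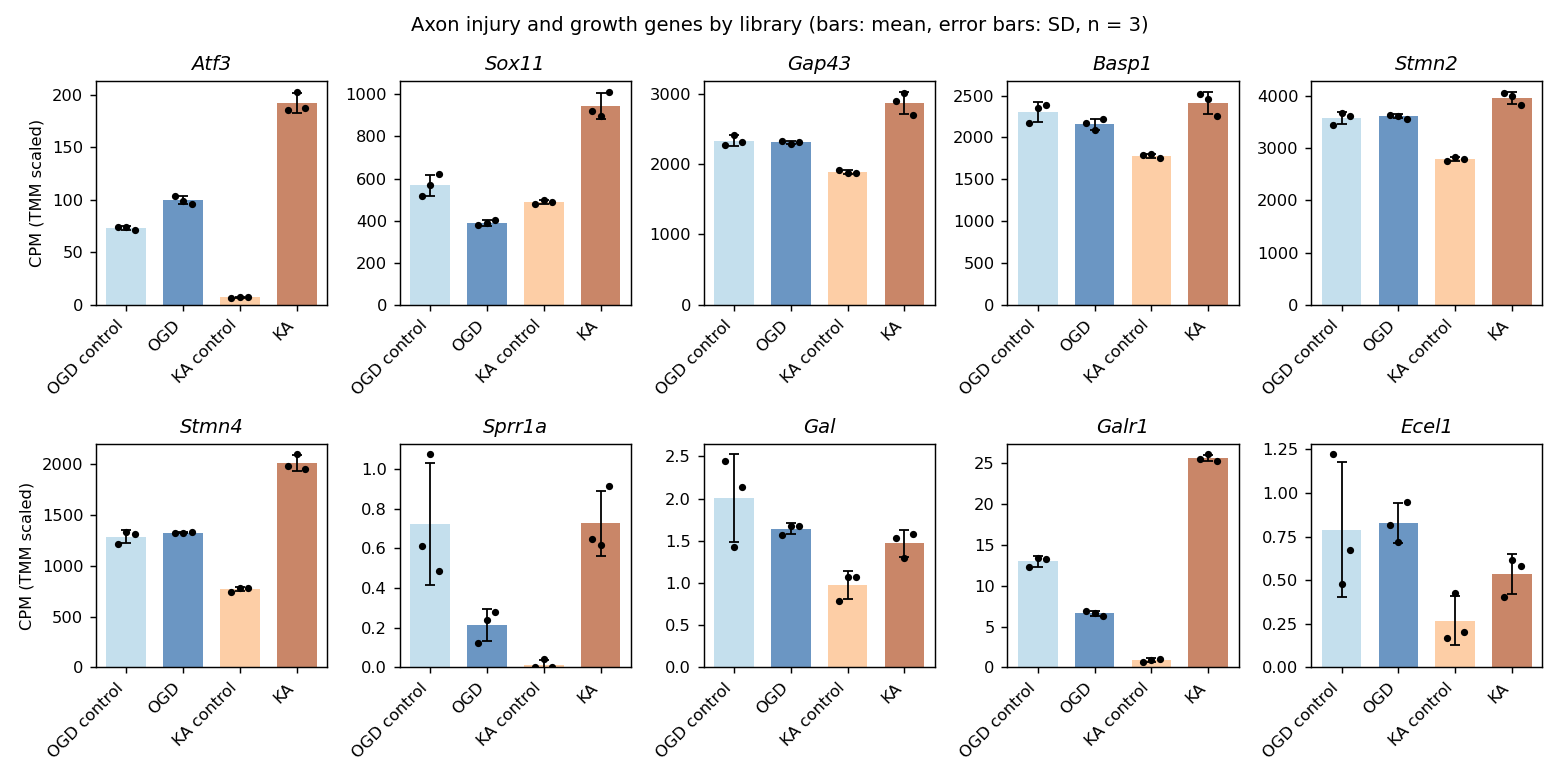
TMM-scaled CPM (vertical axes, linear and starting at 0) of each of the 10 genes in the 4 groups. Points are libraries, bars are means and error bars are SD with n = 3. For all genes but Gal and Ecel1 the KA bar stands clearly above KA control and at or above every other bar. For Sprr1a the KA bar is about level with OGD control. KA control is the lowest bar for all genes but Sox11, which is lowest in OGD.

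Atf3 encodes a stress-induced transcription factor of the ATF/CREB family and is a standard marker of injured neurons. Its level was 74.2, 74.3 and 70.8 CPM in OGD control and 104, 98.4 and 96.3 CPM in OGD. In KA control it was 6.62, 6.95 and 7.56 CPM, and in KA 186, 203 and 187 CPM. The 4 groups did not overlap: KA was the highest, OGD and OGD control lay between, and KA control was far below the others. KA raised Atf3 27.2-fold (95% interval 24.8 to 29.9; log2 change 4.77, SE 0.07, adjusted p = 1.11e-30), and OGD raised it 1.36-fold (1.27 to 1.46; log2 0.44, SE 0.05, adjusted p = 4.52e-08). The untreated cultures differed as well, with Atf3 at 73.1 ± 2.02 CPM (SD, n = 3) in OGD control and 7.05 ± 0.474 CPM in KA control, a log2 difference of -3.37 (adjusted p = 3.16e-26).

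The Atf3 gene lies on mouse chromosome 1, from 191170296 to 191218039 on the minus strand (mm10, GENCODE M21). The 250 bases upstream of its RefSeq transcript start (GRCm38.p6), at chr1:191183334-191183583 on the minus strand, are shown because Atf3 had one of the largest responses of the set and because factors of its own family bind the element they hold. This window lies within the gene span given above, for which GENCODE lists 3 transcripts. Bases before any other start of Atf3 were not searched. Capitals mark a match to TNACGTCA, a looser form of the cyclic AMP response element TGACGTCA.
Atf3: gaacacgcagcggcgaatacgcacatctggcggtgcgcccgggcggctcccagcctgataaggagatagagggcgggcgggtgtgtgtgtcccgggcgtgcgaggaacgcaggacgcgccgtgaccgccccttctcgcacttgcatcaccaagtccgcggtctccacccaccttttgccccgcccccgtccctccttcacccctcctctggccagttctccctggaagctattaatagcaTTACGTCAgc
The match, TTACGTCA, lies 10 to 3 bases before the start. Both strands were searched, and every TGACGTCA match also counts as a match to the looser form. In 32851 windows of the same length, 2.52% held TNACGTCA and 1.55% held TGACGTCA. The looser form was added to the search after these sequences had been seen.

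Sox11 encodes an SRY-box transcription factor of immature neurons that is switched on again in injured sensory neurons. Its levels were 519, 567 and 619 CPM in OGD control and 377, 388 and 404 CPM in OGD. KA control libraries were at 479, 499 and 488 CPM and KA libraries at 922, 896 and 1013 CPM. No groups overlapped, and the directions of the treatments were opposite. OGD lowered Sox11 by a log2 change of -0.54 (SE 0.05, adjusted p = 2.40e-09), and KA raised it by 0.95 (SE 0.05, adjusted p = 3.64e-16), which is 1.93-fold (1.79 to 2.08). Untreated cultures were the closest of all the genes for Sox11, at 568 ± 50.4 CPM in OGD control and 488 ± 9.94 CPM in KA control (log2 difference -0.22, adjusted p = 0.000486). That small difference was not called on total counts without TMM (-0.03, adjusted p = 0.570). Summed markers of excitatory neurons fell and rose in the same way, at 1660 to 1865 CPM in OGD control and 1170 to 1205 in OGD. They were at 1534 to 1557 CPM in KA control and 2897 to 3080 in KA. Of these 6 markers, 6 were called higher under KA (all genes 35.2%) and 5 lower under OGD (20.5%). Sums of inhibitory neuron markers also fell under OGD and rose under KA, at 723 to 737 CPM in KA control and 970 to 1008 in KA. Of those 5 markers, 3 were called higher and 2 lower under KA (35.2% and 37.6%). Astrocyte, sensory neuron and fibroblast and mural cell sums fell and rose in these directions too. The part of any of these markers in the Sox11 values was not tested.

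Gap43 encodes a membrane-bound growth cone protein that is a long-standing marker of axon growth. It was at 2267, 2416 and 2308 CPM in OGD control and at 2322, 2289 and 2312 CPM in OGD, with full overlap. In the other experiment it was at 1918, 1873 and 1875 CPM in KA control and at 2898, 3012 and 2697 CPM in KA, with no overlap. KA raised Gap43 1.52-fold (1.43 to 1.61; log2 0.60, adjusted p = 6.17e-14). Under OGD the log2 change was -0.01, with a 95% interval of -0.10 to 0.07 (adjusted p = 0.820).

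Basp1 encodes a growth cone protein that, like Gap43, binds acidic lipids and actin regulators at the membrane. OGD control libraries had 2168, 2353 and 2387 CPM and OGD libraries 2167, 2084 and 2217 CPM. KA control libraries had 1789, 1802 and 1750 CPM, all below the KA libraries at 2514, 2462 and 2259 CPM. The KA change was 1.36-fold (1.27 to 1.44; log2 0.44, adjusted p = 3.67e-10), the smallest called KA change among the 10 genes. Under OGD the groups overlapped by 1 library and the log2 change of -0.10 was not called (95% interval -0.19 to -0.00468; adjusted p = 0.0911). That OGD change was called with a trend on transcript length removed (-0.13, adjusted p = 0.00867) and without OGD control replicate 1 (-0.14, adjusted p = 0.0226), and its adjusted p reached 0.340 in the other settings.

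Stmn2, a neuronal stathmin that binds tubulin and is needed for axon outgrowth and repair, had the highest level of the set in CPM. It was at 3455, 3671 and 3610.4 CPM in OGD control and at 3644, 3628 and 3566 CPM in OGD. Its KA control libraries were at 2763, 2826 and 2789.9 CPM and its KA libraries at 4063, 3999.96 and 3827 CPM. OGD and OGD control overlapped (log2 change 0.01, 95% interval -0.06 to 0.09, adjusted p = 0.809), while KA lay above KA control in every library (log2 0.51, adjusted p = 6.25e-13), by 1.42-fold (1.34 to 1.498).

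Stmn4, another neuronal member of the stathmin family, had a larger KA change than Gap43, Basp1 and Stmn2 had, with no test of these differences between genes. OGD control libraries were at 1216, 1334 and 1312 CPM, and OGD libraries at 1327, 1319.97 and 1332 CPM. In KA control it was at 747, 786 and 781 CPM and in KA at 1982, 2099 and 1952 CPM, so that KA was the highest and KA control the lowest group with no overlap. KA raised Stmn4 2.61-fold (2.45 to 2.77; log2 1.38, SE 0.04, adjusted p = 2.39e-22). Under OGD the log2 change was 0.04 (95% interval -0.04 to 0.13; adjusted p = 0.458). The 95% intervals of the KA changes of Stmn4 and Stmn2 did not overlap, at 1.29 to 1.47 and 0.43 to 0.58.

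Sprr1a encodes a small proline-rich protein of the cornified envelope of skin that injured sensory neurons also make and that promotes neurite outgrowth there. Few molecules were counted: 8, 18 and 8 counts in the OGD control libraries, 2, 5 and 5 in OGD, 0, 1 and 0 in KA control, and 8, 11 and 11 in KA. In CPM these are 0.611, 1.07 and 0.488 in OGD control, 0.125, 0.240 and 0.280 in OGD, 0, 0.0429 and 0 in KA control, and 0.646, 0.617 and 0.914 in KA. Sprr1a was thus near 0 in KA control, low in OGD, and about equally high in OGD control and KA, whose ranges overlapped. Where a KA control library had 0 counts, 3 counts, the limit that a count of 0 allows, are 0.153 to 0.168 CPM. The 30 counts of KA against 1 of KA control give a ratio of 43.1 at equal scaled depth, with an exact 95% interval of 7.17 to 1759 that covers counting error only; edgeR called the KA rise (adjusted p = 6.42e-07), and its fitted fold rests on the 1 count, in KA control replicate 2, without which the group is at 0. OGD lowered Sprr1a, with a summed-count ratio of 0.298 (0.141 to 0.591) and a log2 change of -1.71 (SE 0.45, adjusted p = 0.00309). Without OGD control replicate 2, which had the most counts, the log2 change was -1.28 and was not called (adjusted p = 0.0615; 0.00184 to 0.0615 over the settings tried).

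Markers of keratinocytes, which make Sprr1a in skin, summed to 30.2 to 31.9 CPM in OGD control, 31.6 to 34.5 in OGD, 22.7 to 26.2 in KA control and 19.9 to 23.8 in KA. Krt1 and Lor made up nearly all of these sums, while the defining keratins Krt5 and Krt14 had 9 and 13 counts and Ivl had 1 count over all 12 libraries. The Sprr1a gene lies on chromosome 3 from 92483952 to 92485895 on the minus strand (mm10). Its 250 upstream bases, at chr3:92485882-92486131 on the minus strand (RefSeq, GRCm38.p6), are shown because they hold 2 matches to the AP-1 motif TGANTCA, the element that Jun and Fos proteins bind, in capitals.
Sprr1a: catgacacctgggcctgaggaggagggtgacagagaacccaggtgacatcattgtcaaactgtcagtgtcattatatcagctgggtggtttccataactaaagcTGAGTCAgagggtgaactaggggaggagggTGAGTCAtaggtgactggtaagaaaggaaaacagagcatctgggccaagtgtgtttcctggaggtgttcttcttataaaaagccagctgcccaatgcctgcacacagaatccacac
The matches, both TGAGTCA, lie 146 to 140 and 116 to 110 bases before the start. Of the 32851 windows, 6.75% held at least 1 match on either strand. The RefSeq table also holds windows for Sox11, Basp1, Gal and Ecel1, and these had no match to either form of the cyclic AMP response element, to AP-1 or to the CArG box, which 1.47% of all windows held. Windows of Gap43, Stmn2, Stmn4 and Galr1 are not used here.

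Gal encodes galanin, a neuropeptide that sensory and sympathetic neurons make after axotomy. It was at 2.44, 1.43 and 2.14 CPM in OGD control and at 1.57, 1.68 and 1.68 CPM in OGD. KA control libraries had 0.786, 1.07 and 1.07 CPM and KA libraries 1.53, 1.29 and 1.58 CPM, from 60 and 61 counts in all. OGD and OGD control overlapped, and KA control was below every other library. Neither treatment gave a called change: the log2 change was -0.26 under OGD (95% interval -0.70 to 0.18; adjusted p = 0.364) and 0.55 under KA (0.02 to 1.07; adjusted p = 0.0583). The KA value stood at the threshold, and 3 of the other settings called it: DESeq2 size factors (adjusted p = 0.0498), a filter of 1 CPM (0.0479) and a fit of only the groups compared (0.0450), over a range that reached 0.312. Gal was higher in OGD control than in KA control in every library (log2 difference for KA control -0.99, adjusted p = 0.000436).

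Galr1, an inhibitory G protein-coupled receptor for galanin, separated the 4 groups as fully as Atf3 did. OGD control libraries were at 12.2, 13.4 and 13.2 CPM and OGD libraries at 6.95, 6.61 and 6.27 CPM. KA control libraries were at 0.618, 0.901 and 1.07 CPM and KA libraries at 25.5, 26.0 and 25.3 CPM. All 4 groups were apart, in the order KA, OGD control, OGD, KA control. KA raised Galr1 29.1-fold (24.3 to 34.9; log2 4.86, SE 0.13, adjusted p = 3.63e-24), and OGD lowered it 1.97-fold (log2 -0.98, SE 0.10, adjusted p = 4.02e-09). The other galanin receptor that could be tested, Galr2, moved in the same directions, from 3.96 ± 0.476 to 2.18 ± 0.273 CPM under OGD (log2 -0.86, adjusted p = 0.000136) and from 0.875 ± 0.0208 to 1.97 ± 0.325 CPM under KA (log2 1.15, adjusted p = 8.20e-05).

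Ecel1, also known as DINE, is a membrane metallopeptidase of the neprilysin family that is induced in neurons by nerve injury and is needed for motor axon arborization. Its levels were 1.22, 0.477 and 0.672 CPM in OGD control and 0.814, 0.719 and 0.951 CPM in OGD. KA control libraries were at 0.168, 0.429 and 0.204 CPM and KA libraries at 0.404, 0.617 and 0.582 CPM. Both treated groups overlapped their controls, and no change was called: 0.12 under OGD (95% interval -0.58 to 0.81; adjusted p = 0.818) and 0.94 under KA (-0.01 to 1.90; adjusted p = 0.0705). The groups held 17 to 45 counts each, and the SEs of the log2 changes were 0.34 and 0.47. Without KA control replicate 2, which was the highest of its group, the KA change was 1.499 and was called (adjusted p = 0.0206; up to 0.219 over the settings tried).

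**Figure D2:**
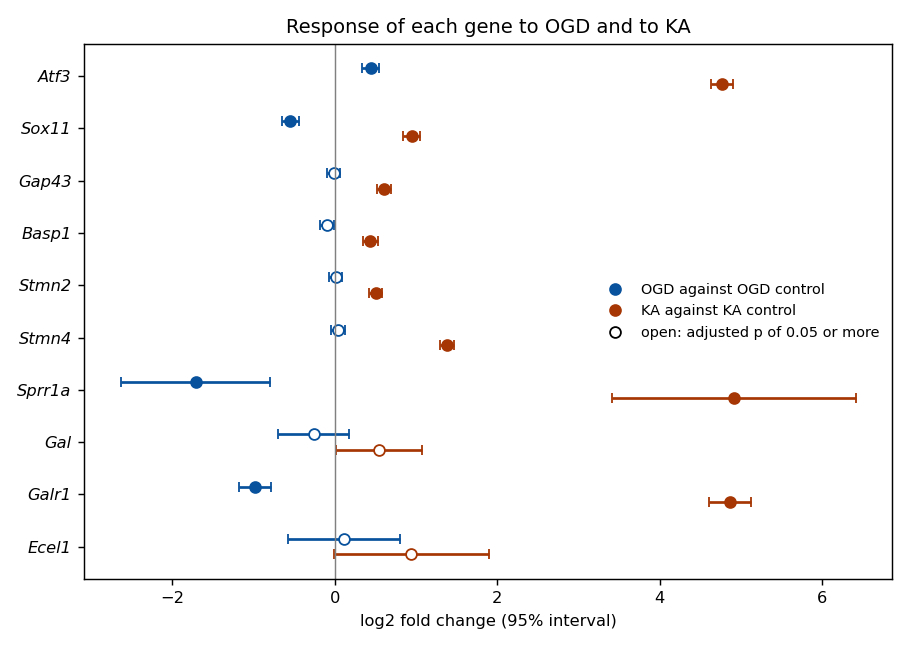
Log2 fold change (horizontal axis) of each gene under OGD against OGD control (blue) and KA against KA control (brown), with 95% intervals from edgeR; open symbols have an adjusted p of 0.05 or more. Atf3, Galr1 and Sprr1a stand apart on the KA side at 4.77, 4.86 and 4.91, the last resting on 1 control count, and no gene has a called OGD change above 0.44.

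The responses, each measured from its own control, were compared by testing the difference of the log2 responses, KA minus OGD. It was called for 9 of the 10 genes, all in the direction of a more positive response to KA, against 68.2% of all tested genes called and 33.8% called in that direction. The difference was 4.32 for Atf3 (adjusted p = 8.50e-27) and 5.84 for Galr1 (6.17e-23). It was 1.49 for Sox11 (4.54e-17) and 1.34 for Stmn4 (3.23e-18). Gap43, Basp1 and Stmn2 had smaller differences of 0.62, 0.53 and 0.49, with adjusted p-values of 1.15e-10, 9.62e-09 and 2.63e-09. For Gal it was 0.81 (adjusted p = 0.0346, up to 0.182 over the settings tried). For Ecel1 the value of 0.82 was not called (adjusted p = 0.205). The fitted value for Sprr1a, 6.63, rests on the 1 count of KA control (adjusted p = 7.70e-08). A lower level in KA control than in OGD control makes this difference more positive, and all 10 genes were called lower there, Atf3 by -3.37. For Gal the mean level was 1.47 CPM in KA and 1.64 CPM in OGD. The treatments belong to experiments that share no control library, so a difference between treatments cannot be told apart from one between experiments.

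The untreated groups were compared directly because a response is measured from its own control. All 10 genes were called lower in KA control than in OGD control, against 68.7% of all tested genes called and 34.2% called lower, with a median log2 difference of -0.87 beside 0.003 over all genes. Galr1 differed by -3.89 (adjusted p = 4.26e-20), Stmn4 by -0.74 (1.50e-15), Ecel1 by -1.42 (0.00384) and Stmn2 by -0.36 (1.49e-09). For Gap43 and Basp1 the differences were -0.30 (1.54e-07) and -0.37 (1.34e-08), and for Sprr1a the 34 counts of OGD control against 1 of KA control give a ratio of 44.6 (exact 95% interval 7.49 to 1814). Without OGD control replicate 1 the Ecel1 difference was -1.02 and was not called (adjusted p = 0.0559; 0.00133 to 0.0559 over the settings tried). The experiments share no control library, and a difference between the cultures used cannot be told apart from one between the experiments. Summed over the 10 genes, the level was 10157 ± 386 CPM in OGD control, 9901 ± 74.4 in OGD, 7731 ± 55.8 in KA control and 12419 ± 397 in KA.

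Levels can be compared between genes only per length, and only as far as reads of each gene were counted equally well, which was not tested. Per kilobase of annotated exon, the order in OGD control was Gap43 at 1530.01 CPM per kb, Basp1 at 1146, Stmn4 at 672 and Stmn2 at 639, then Sox11 at 68.4 and Atf3 at 33.9. Galr1 followed at 4.34, Gal at 2.54, Sprr1a at 0.899 and Ecel1 at 0.226. Stmn4 and Stmn2 did not differ beyond their spread, with SDs of 32.6 and 19.9, and they changed places when the longest transcript was used as the length (946 and 1049 CPM per kb). In KA the order was unchanged, with Gap43 at 1884 CPM per kb and Ecel1 at 0.153, while Atf3 was at 89.1 there against 3.27 in KA control. The order changed at 3 places in KA control. Stmn2 was at 499 CPM per kb, above Stmn4 at 403, Gal was at 1.24, above Galr1 at 0.289, and Ecel1 was at 0.0764, above Sprr1a at 0.0177. In OGD Gal and Galr1 did not differ beyond their spread, at 2.08 ± 0.0824 and 2.21 ± 0.115.

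**Figure D3:**
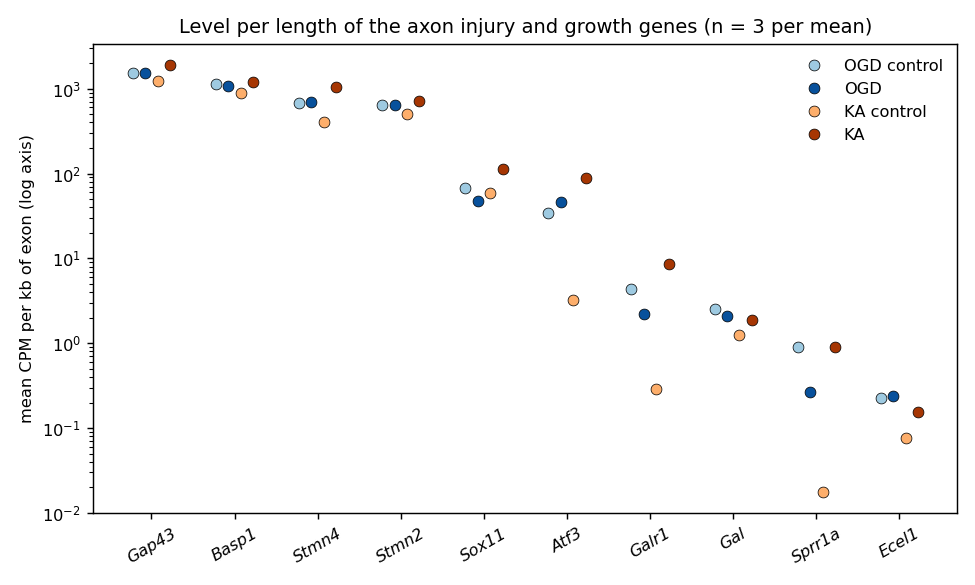
Mean CPM per kb of exon (log axis) of each gene in the 4 groups, ordered by the level in OGD control, with each point a mean of 3 libraries. Gap43, Basp1, Stmn4 and Stmn2 lie at 403 to 1884 CPM per kb in every group, and the lowest point is Sprr1a in KA control at 0.0177.

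Profiles over the 12 libraries were compared with those of 9294 well-expressed genes by the root mean square (RMS) difference of log2(CPM + 0.1) after centring each gene on its own mean. The nearest genes to Atf3 were the early response genes Btg2 (RMS 0.11) and Cyr61 (0.16). Btg2 had group means of 116 CPM in OGD control, 162 in OGD, 10.7 in KA control and 270.3 in KA. The nearest to Galr1 were Tnfaip6 (0.26) and the activity-regulated transcription factor Npas4 (0.33), which was at 994 CPM in OGD control, 802 in OGD, 67.4 in KA control and 2643 in KA. Sox11 was nearest to 2900092D14Rik (0.07) and Cnn3 (0.09), and Stmn4 to Eif1 (0.06) and Setd7 (0.07). Gap43 was nearest to Eef2 (0.04) and Nfkbib (0.05), Basp1 to Calm2 (0.04) and Nptn (0.05), and Stmn2 to Hsp90ab1 (0.03) and Txn1 (0.03). Distances were larger for the low-count genes than for all others but Galr1. Sprr1a was closest to Dennd2c (0.37) and C2cd4b (0.40), Gal to Eepd1 (0.18) and Acan (0.19), and Ecel1 to Fkbp14 (0.29) and Sall1 (0.32). The added 0.1 CPM shrinks the Sprr1a profile, in which KA is 7.24-fold over KA control, beside a ratio of summed counts of 43.1. Depth and scaling are shared by all profiles, and these distances are descriptions.

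Beyond the 10 genes, 8 lists of 115 other axon injury and growth genes were followed, of which 91 could be tested. KA raised 58 and lowered 15 of the 91, beside 35.2% and 37.6% of all tested genes, with a median log2 change of 0.55 against -0.02 over all genes. OGD raised 8 and lowered 28, beside 17.6% and 20.5% of all tested genes, with a median of -0.07 against 0.01. Among 9 tested injury transcription factors, KA raised 7 and lowered 1 (all genes 35.2% and 37.6%). OGD raised 1 and lowered 3, near the shares of all genes (17.6% and 20.5%). Jun, the partner of Atf3 in the injury response, went from 53.2 ± 5.36 to 796 ± 83.5 CPM under KA (log2 3.90, adjusted p = 8.87e-28) and from 355 ± 17.6 to 464 ± 36.3 CPM under OGD (log2 0.39, adjusted p = 1.71e-05). Nfil3, a bZIP repressor, went from 148 ± 5.98 to 1225 ± 62.7 CPM under KA (log2 3.04). Smad1 and Klf6, both regeneration-associated factors, fell under OGD by log2 changes of -0.29 and -0.22, and the stress factor Ddit3 fell under KA (-0.38), which was not called with DESeq2 (adjusted p = 0.0844) or without KA replicate 2 (-0.29, adjusted p = 0.126, the highest over the settings tried).

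Of 21 other growth cone and cytoskeleton genes tested, KA raised 9 and lowered 7, near the shares of all genes (35.2% and 37.6%), with a median of 0.06. Cfl1, which severs actin filaments, rose under KA from 1827 ± 18.1 to 3007 ± 166 CPM (log2 0.72) and Marcksl1 rose by 0.70. Chl1, a cell adhesion molecule of the L1 family, fell from 1638 ± 20.5 to 1053 ± 111 CPM (-0.64), and Map1b, which stabilizes axonal microtubules, fell by a log2 change of -0.47. Under OGD 4 rose and 2 fell (all genes 17.6% and 20.5%), and the largest rises were those of the tubulins Tubb3, from 1568 ± 60.5 to 2107 ± 74.8 CPM (log2 0.43), and Tubb2b (0.32). The OGD falls of Map1b (-0.16) and of Marcks (-0.18) were small; that of Map1b was not called in 9 other settings, and that of Marcks not without OGD control replicate 3 (-0.13, adjusted p = 0.0829, the highest over the settings tried).

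Of 13 tested neuropeptide and receptor genes, 8 rose and 3 fell under KA (all genes 35.2% and 37.6%), and 0 rose and 5 fell under OGD (17.6% and 20.5%). Adcyap1, which encodes the neuropeptide PACAP, rose under KA from 90.7 ± 0.650 to 213 ± 5.03 CPM (log2 1.24) and fell under OGD from 182 ± 12.8 to 104 ± 7.59 CPM (log2 -0.81, adjusted p = 9.54e-13). Its receptor gene Adcyap1r1 fell under KA (-1.77), as did the neuropeptide Y receptor gene Npy5r (-1.07), while Npy rose (0.85); Npy1r fell under OGD (-0.39).

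Of 12 tested cytokine and trophic factor genes, KA raised 8 and lowered 2 (all genes 35.2% and 37.6%), and OGD raised 1 and lowered 6 (17.6% and 20.5%). Bdnf, a neurotrophin, rose under KA from 7.89 ± 0.545 to 67.6 ± 3.43 CPM (log2 3.10, adjusted p = 1.23e-24) and fell under OGD from 40.1 ± 3.04 to 20.9 ± 1.51 CPM (log2 -0.94, adjusted p = 1.87e-11). Inhba, an activin subunit, rose under KA (1.97), and the receptors Ngfr (-1.45) and Il6st (-0.51) fell. Under OGD Ntrk2, the receptor of Bdnf, fell (-0.78) and Igf1 rose from 0.302 ± 0.117 to 1.07 ± 0.325 CPM (log2 1.76, adjusted p = 0.000675).

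Among 11 tested kinases and degeneration genes of the axon damage pathway, KA raised 8 and lowered 1 (all genes 35.2% and 37.6%). The damage-sensing kinases went in opposite directions under KA, with Map3k13 (LZK) higher by a log2 change of 1.26 and Map3k12 (DLK) lower by -0.92. Nmnat2, which keeps axons alive, rose under KA from 318 ± 8.68 to 629 ± 27.1 CPM (log2 0.99) and fell under OGD from 544 ± 11.3 to 403 ± 15.9 CPM (-0.43). OGD called 1 gene of this list higher, Map3k12 (0.40), and 2 lower, with Map2k4 at -0.24, near the shares of all genes (17.6% and 20.5%); the Map3k12 call was lost in 5 other settings.

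Of 12 tested genes that restrain axon growth, 8 rose and 1 fell under KA (all genes 35.2% and 37.6%). Klf4, a repressor of axon growth in retinal ganglion cells, rose from 2.79 ± 0.650 to 197 ± 18.2 CPM (log2 6.12, adjusted p = 1.18e-29), and Klf9 rose by 1.74, while the Nogo receptor gene Rtn4r fell (-0.69). Under OGD 1 rose and 4 fell (17.6% and 20.5%), with Lingo1 at -0.51, Klf9 at -0.39 and Rock1 at 0.17, a call that was lost in 5 other settings. Other injury-induced effectors rose in 7 of 9 tested genes under KA, with 0 lower (35.2% and 37.6%), among them the plasminogen activators Plat, from 26.8 ± 1.60 to 201 ± 4.70 CPM (log2 2.91), and Plau (3.31). Under OGD 4 of the 9 fell and 0 rose (20.5% and 17.6%), among them Cdkn1a (-0.75) and Gadd45a (-0.44). Of 4 tested metallopeptidases related to Ecel1, 3 rose and 0 fell under KA (35.2% and 37.6%), and 2 fell and 0 rose under OGD (20.5% and 17.6%), with Ece1 at 0.98 and -0.26 and Phex at 0.99 and -0.88.

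**Figure D4:**
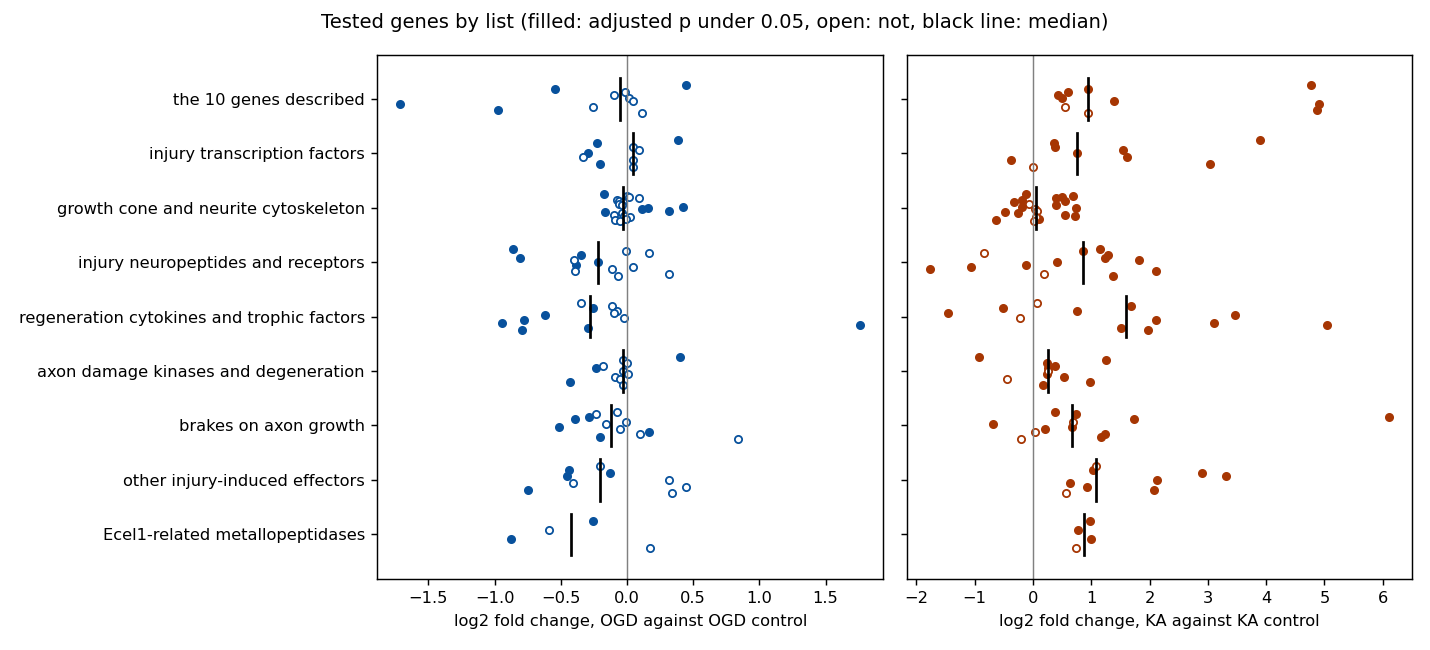
Log2 fold change of every tested gene of the set and of 8 lists (rows) under OGD (left axis range) and KA (right axis range, wider); each point is a gene, filled where the adjusted p is under 0.05, and black lines are medians. Medians under KA run from 0.06 for growth cone genes to 1.60 for cytokines and trophic factors, and under OGD from -0.43 to 0.05.

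Markers of other cell types also differed between treated cultures and their controls. Astrocyte markers summed to 56.3 to 57.9 CPM in KA control and 157 to 176 CPM in KA. Of these, 3 of 6 were called higher, beside 35.2% of all tested genes. Slc1a3 and Sox9 carried nearly all of the rise, at 30.6 and 5.38 CPM in KA control and 85.9 and 50.6 CPM in KA, while Gfap was at 1.25 and 1.41 CPM. Fibroblast and mural cell markers summed to 4.60 to 5.01 CPM in KA control, 17.1 to 18.0 in KA and 17.7 to 19.5 in OGD control. Col1a1 was the largest of them, at 2.05 CPM in KA control, 11.8 in KA and 13.2 in OGD control, and Pdgfrb had 0 counts. Microglial markers were at 4.49 to 5.57 CPM in KA control and 8.14 to 10.04 in KA, and Schwann cell markers did not exceed 1.08 CPM in any library. With OGD, whose called falls were those of Sox11, Sprr1a and Galr1, inhibitory neuron markers fell in 5 of 5 genes (all genes 20.5%). Their sums were 2341 to 2452 CPM in OGD control and 1875 to 1996 CPM in OGD. Astrocyte sums were 93.6 to 105 CPM in OGD control and 74.5 to 85.3 CPM in OGD, with 2 of 6 called lower (20.5%). Fibroblast and mural cell sums were 17.7 to 19.5 CPM in OGD control and 13.5 to 14.8 in OGD. The part of these marker differences in the changes of the 10 genes was not tested.

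The KA calls are relative to the scaling of the libraries. TMM factors were 0.912 to 0.935 in KA and 1.10 to 1.11 in KA control, and total counts without TMM moved the median log2 change of all genes by -0.26 under KA. In that setting 32.0% of the KA calls were higher, against 48.4% with TMM, and the KA changes of Atf3, Stmn4, Sox11 and Galr1 were 4.51, 1.12, 0.69 and 4.61. Those of Gap43, Stmn2 and Basp1 were 0.34, 0.25 and 0.18, so the same 8 genes were called higher.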

How the data were processed

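RNA was measured in 12 libraries of primary mouse neurons. Per the labels' protocols, RNeasy columns were used to purify total RNA, and TruSeq RNA v2, a kit that does not mark strand, to make libraries. The submitters' processing notes name bcl2fastq 1.8.4, TopHat 1.4.1, HTSeq 0.6.1 and the build mm10; the settings and the gene annotation are not stated in the sources used here. The authors deposited raw counts per gene symbol, whole numbers with no normalization. The 6 columns headed OGT were matched to samples titled OGD.

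Counts were tested with edgeR 4.0.16 in R 4.3.3: filterByExpr (minimum count 10, minimum total 15), TMM, and 1 quasi-likelihood fit of 4 group means over all 12 libraries (8 residual degrees of freedom, common biological coefficient of variation 0.0402). CPM are TMM scaled; 1 count is 0.0429 to 0.0831 CPM and 3 counts, the limit at a count of 0, are 0.129 to 0.249 CPM, for counting error only. No replicate pair agreed within sampling noise, with a chi-square of 1.48 to 6.19 for each degree of freedom. The test was tried on counts drawn with known changes before use. Lengths came from GENCODE M21 (22516 symbols matched, 963 by an older symbol, and 383 did not), with 13030 tested genes having one, and promoter windows from RefSeq (GRCm38.p6), which held 6 of the 10 genes.

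The genes, lists, markers and tests were chosen with earlier results of these data known. From each list the text names, per treatment and direction, the 2 called genes with the smallest adjusted p; the 10 genes, Galr2 and cell type markers are named whatever their outcome, Galr2 as the other tested galanin receptor. The nearest profiles are the 2 genes with the smallest RMS difference and a mean of at least 2 on the log2 CPM scale. Alternatives were no filter, DESeq2 1.42.0, the size factors of DESeq2 in edgeR, a filter of 1 CPM, a replicate block, fits of only the groups compared, genes with 1 transcript, a length trend removed, and each library left out. Total counts without TMM were added after seeing the data.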

Additional observations from a re-analysis of the deposited data

Results flagged for a closer look

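The log2 responses to KA and to OGD differed by edgeR's test of the difference itself for 9 of the 10 genes, each with a more positive response to KA. The difference was 4.32 for Atf3, 1.49 for Sox11, 0.62 for Gap43, 0.53 for Basp1, 0.49 for Stmn2, 1.34 for Stmn4, 0.81 for Gal and 5.84 for Galr1. For Sprr1a it was 6.63, a fitted value that rests on 1 count in KA control. Among all tested genes 68.2% had a called difference. Each response was measured from its own untreated group, and all 10 genes were lower in KA control than in OGD control. For Atf3 the KA libraries, at 186 to 203 CPM, lay above the OGD libraries, at 96.3 to 104 CPM. The same order held for Sox11, Gap43, Basp1, Stmn2, Stmn4, Sprr1a and Galr1. KA and OGD belong to experiments that share no control library, and 68.7% of all tested genes were called between the untreated groups. KA was not tested against OGD directly, and how many of all genes separate in this way was not counted. The Gal libraries overlapped between KA and OGD, and their difference of responses was not called in 10 of the other settings. Groups of 3 libraries were not screened for outlying libraries, but the fits were repeated with each library left out.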

How the results depend on the processing

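Over the planned and added settings, 287 of 297 comparisons of single values of the 10 genes kept their direction and their side of the threshold, as did 467 of 480 with 1 library left out. The values that reversed were all of uncalled OGD changes near 0: Gap43 was 0.033 on total counts without TMM (adjusted p = 0.503, and at least 0.141 in every setting) and 0.013 without OGD control replicate 2, Stmn2 was -0.011 without OGD control replicate 1, and Ecel1 was -0.16 without OGD control replicate 2. With 1 library left out, these changes ran from -0.033 to 0.013 for Gap43, -0.011 to 0.033 for Stmn2 and -0.16 to 0.52 for Ecel1. The difference of responses of Gal was not called with DESeq2 (adjusted p = 0.0794), without a filter (0.0584), on total counts (0.50, 0.182), with a length trend removed (0.0802) or without any 1 of 6 libraries (OGD 1, OGD control 1 and 3, KA 1 and 3, KA control 1; 0.0579 to 0.0955). The cause was not tested. The number of the 10 genes called ran from 3 to 5 for OGD, 8 to 9 for KA, 8 to 9 for the difference and 8 to 10 for the controls over all settings; some settings tested fewer of them.

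Limiting the test to 7336 genes with 1 curated transcript, a definition taken from RefSeq after the data had been seen, left 3083 genes called for OGD, 5651 for KA, 5332 for the difference and 5405 for the controls, from fewer genes tested. With 1 library left out, genes called ran from 4192 to 5371, 9162 to 9624, 8696 to 8956 and 8498 to 9252. Total counts without TMM moved the median log2 change by 0.05, -0.26, -0.31 and 0.19 in the same order, and the share of calls that were higher from 46.2% to 58.1%, 48.4% to 32.0%, 49.6% to 31.7% and 50.2% to 66.3%.

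Replicate numbers were not treated as pairs, and the number was no main term. Same-numbered deviations correlated at 0.17, 0.04 and 0.08 in the OGD experiment and at -0.18, -0.09 and -0.16 in the KA experiment. With the replicate number as a block, 4834 genes were called for OGD, 9483 for KA, 8877 for the difference and 8952 for the controls, and no call among the 10 genes changed. Each OGD library correlated best with the control of its own number, as a hint from the data, but OGD control replicate 2 was nearer to OGD replicate 3 (0.068 against 0.044), and in the KA experiment no library correlated best with its own number.

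Depth limits Sprr1a, Gal and Ecel1, whose groups held 1 to 91 counts, and the longest transcript as the length moved the level per kb in OGD control of Atf3 (36.8), Gap43 (1641), Basp1 (1241), Stmn2 (1049) and Stmn4 (946).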

Other observations

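The other 91 tested axon injury and growth genes were also compared between the responses and between the untreated groups. The difference of responses was called more positive for KA in 54 and more negative in 11 of the 91, with a median of 0.59; over all tested genes the shares were 33.8% and 34.4% and the median -0.02. KA control was lower than OGD control for 55 of the 91 and higher for 9, beside 34.2% and 34.5% of all tested genes, with a median log2 difference of -0.37 beside 0.003 over all genes tested. All 4 tested metallopeptidases related to Ecel1 were lower in KA control, with a median of -1.10, and so were 9 of the 12 cytokine and trophic factor genes, with a median of -0.99. The growth cone list had 12 of 21 genes lower and 2 higher, with a median of -0.16, and the same shares of all genes stand beside these counts. Excitatory neuron markers were called more positive in the response to KA for 6 of 6 genes (all genes 33.8%), with a median difference of 1.56. The same call was made for 3 of 5 inhibitory neuron markers and 4 of 6 astrocyte markers. Their medians were 0.61 and 0.85, and 0 of either list were called more negative.

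Curated RefSeq transcripts number 3 for Stmn4, 2 for Gal and Ecel1 and 1 for each of the other 7 genes. Of 13833 table genes with 1 such transcript, 53.0% were tested and 22.1% had no count in any library. Of 8243 genes with 2 or more, 66.9% were tested and 9.52% had no count.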
